A study of Mus musculus with 9 samples.

Results

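The 32 genes described here encode lysosomal enzymes, lysosomal membrane proteins, subunits of the pump that acidifies lysosomes, and the transcription factor Tfeb. They were taken by gene name from a table of 54532 genes, where each name occurred once, and all 32 passed the expression filter that left 10858 genes for testing. RNA came from wild-type primary macrophages grown from mouse bone marrow and kept for 48 h on 1 of 3 implant materials, with 3 libraries per material. The materials were cp titanium (cpTi), the metallic glass Zr61Cu25Al14 (Ta0) and the metallic glass Zr58Cu25Al14Ta3 (Ta3). Metallic glasses are solid alloys whose atoms have no ordered lattice. The study compared the response of the cells to these surfaces, and no library came from another surface. The labels also carry the word xenograft as the tissue, and they do not say how many animals gave cells or whether libraries of a material came from separate cultures. The p-values therefore rest on the spread among these 9 libraries alone, and that spread may be technical. The table's columns were tied to the glasses by composition, so a reversed reading would swap Ta0 and Ta3.

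Lysosomes are acidic organelles that digest material taken up by phagocytosis and endocytosis as well as parts of the cell itself. A proton pump, the V-ATPase, acidifies them, and their proteases, glycosidases and lipid hydrolases work best at low pH. Macrophages hold many lysosomes, since they clear debris and microbes. Tfeb, a basic helix-loop-helix factor, is held in the cytoplasm by mTORC1 and on release enters the nucleus, where it binds E-boxes in promoters of lysosomal genes. In bulk RNA, fewer cells of a type and less RNA per cell cannot be told apart.

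Levels are FPKM (fragments per kilobase of gene length, on a library scale set by the authors), given in the order of replicates 1, 2 and 3, or as mean ± SD with n = 3. Differences are log2 fold changes on the log2(FPKM + 1) scale, which understates the change of low genes. Whole reads rebuilt from the FPKM came to between 15517877 and 18689963 per library. Ta0 replicate 1 and Ta3 replicate 3 stood apart, with 15678 and 13466 genes above 0 FPKM where the others had 18156 to 20635, and with 18.0% and 16.5% of reads in ribosomal protein genes where the others had 2.16% to 10.1%. All 8 macrophage markers were expressed, summing to between 9406 and 39335 FPKM, and 0 of them were called in any comparison. Most of the macrophage sum was Lyz2, at 8953 to 38907 FPKM, and the lowest marker, Mertk, had 6.12 to 14.3 FPKM. The log2 differences of the macrophage markers lay below 0 for 7 of 8 on Ta0 (median -0.42) and 7 of 8 on Ta3 (median -0.36), each against cpTi. Adgre1, the F4/80 antigen, named after its values were seen, had 157 ± 7.67 FPKM on cpTi, 89.1 ± 9.98 on Ta0 and 87.9 ± 8.14 on Ta3, with both glasses below cpTi in every library. Among the other markers examined, Ly6g of neutrophils and Calcr and Oscar of osteoclasts were at 0 in all 9 libraries. Summed levels were 10.004 to 22.6 FPKM for 7 osteoclast markers, 27.6 to 49.6 FPKM for 5 fibroblast markers and 10.3 to 388 FPKM for 6 neutrophil markers. The osteoclast list did not include Ctsk, cathepsin K, at 310 to 1343 FPKM, or Acp5, at 41.4 to 126 FPKM. Most of the neutrophil sum was S100a8, at 9.55 to 369 FPKM, and Mpo, Elane and Camp reached at most 1.60 FPKM in any library. Sums were at most 11.8 FPKM for dendritic, mast, T and NK, B and erythroid cell markers. The part of these cells in the values below was not tested.

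The E-box bound by Tfeb and its relatives, CACGTG, was searched for in RefSeq promoter windows of GRCm38.p6 that span 250 bases before to 50 bases after each annotated start. The extended form TCACGTG, read on either strand and containing that core, was searched for as well. Of the 32 genes, 28 had a window, and Atp6v1h, Ctsb, Ctsh and Npc1 did not. The form TCACGTG was present in 10 of the 28 genes (35.7%), against 7.57% of 7870 tested genes with a window. Counted by windows it was in 28.6% of 35 windows of these genes and in 3.77% of 32851 windows of all genes. The core CACGTG was in 11 of 28 genes, and in 31.4% of their windows against 7.15% of all windows. The similar form TCATGTG, which differs from TCACGTG in 1 letter, was searched for too and is not an unrelated control. It was in 5 of 28 genes (17.9%) against 2.77% of the tested genes with a window. By windows it was in 14.3% of those of the 28 genes against 3.77% of all windows. Lamp1, Mcoln1, Gla and Ctsd are shown as the genes with more than 1 box before the start, and Ctsa, Gaa, Glb1 and Atp6v1a because libraries of a pair of materials did not overlap for them. Each is printed 5′ to 3′ on the gene's strand with CACGTG in capitals, and none runs past the start:
Lamp1, chr8:13159080-13159160, strand +: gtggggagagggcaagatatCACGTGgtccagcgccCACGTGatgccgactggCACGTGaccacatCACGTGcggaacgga
Mcoln1, chr8:3500428-3500499, strand +: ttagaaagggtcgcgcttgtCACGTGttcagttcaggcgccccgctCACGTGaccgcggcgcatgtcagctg
Gla, chrX:134601174-134601252, strand -: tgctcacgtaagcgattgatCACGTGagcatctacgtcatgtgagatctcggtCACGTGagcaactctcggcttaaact
Ctsd, chr7:142387900-142388077, strand -: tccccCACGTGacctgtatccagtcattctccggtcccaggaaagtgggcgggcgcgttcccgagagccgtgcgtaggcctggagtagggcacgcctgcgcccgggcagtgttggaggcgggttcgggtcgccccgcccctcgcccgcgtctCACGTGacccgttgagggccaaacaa
Ctsa, chr2:164833741-164833772, strand +: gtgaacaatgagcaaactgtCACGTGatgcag
Gaa, chr11:119267803-119267848, strand +: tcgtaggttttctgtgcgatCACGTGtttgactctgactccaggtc
Glb1, chr9:114401010-114401055, strand +: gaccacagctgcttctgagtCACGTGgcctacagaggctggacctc
Atp6v1a, chr16:44139365-44139410, strand -: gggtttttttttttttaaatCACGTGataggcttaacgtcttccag
Lamp1 held 4 boxes, the closest beginning 15 bases and the farthest 61 bases before the annotated start. Mcoln1 held 2 boxes, at 71 and 45 bases, and Gla held 2, at 227 and 194 bases. Ctsd had boxes at 245 and 98 bases, Gaa at 140, Atp6v1a at 131, Glb1 at 48 and Ctsa at 12 bases, with another 5 bases past its start. A match describes these letters and does not show that a factor was bound, and no test was made of these shares.

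The 32 genes were among the most abundant RNAs of these cells. Their summed FPKM was 28003, 33872 and 26934 on cpTi, 40335, 32401 and 35471 on Ta0, and 31657, 34927 and 41583 on Ta3. It was lowest in cpTi replicate 3 and highest in Ta3 replicate 3, and the ranges of the 3 materials overlapped. These sums depend on the scale of each library. The FPKM of all genes summed to 1.25e+06 in Ta0 replicate 1 and 965651 in Ta3 replicate 3, and to between 305491 and 565811 in the others. As a share of rebuilt reads the genes took 8.65 ± 0.981% on cpTi, 8.05 ± 1.76% on Ta0 and 9.69 ± 2.99% on Ta3. This share was highest in Ta3 replicate 2 (12.9%) and lowest in Ta0 replicate 1 (6.12%). Ta3 replicate 3, with the highest summed FPKM, had 7.05%, and cpTi replicate 3, with the lowest, had 9.77%. By mean FPKM over all libraries, 9 of the 32 genes ranked in the top 100 of the tested genes and 24 in the top 1000. The lowest was Tfeb, which ranked 3938th.

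**Figure D1:**
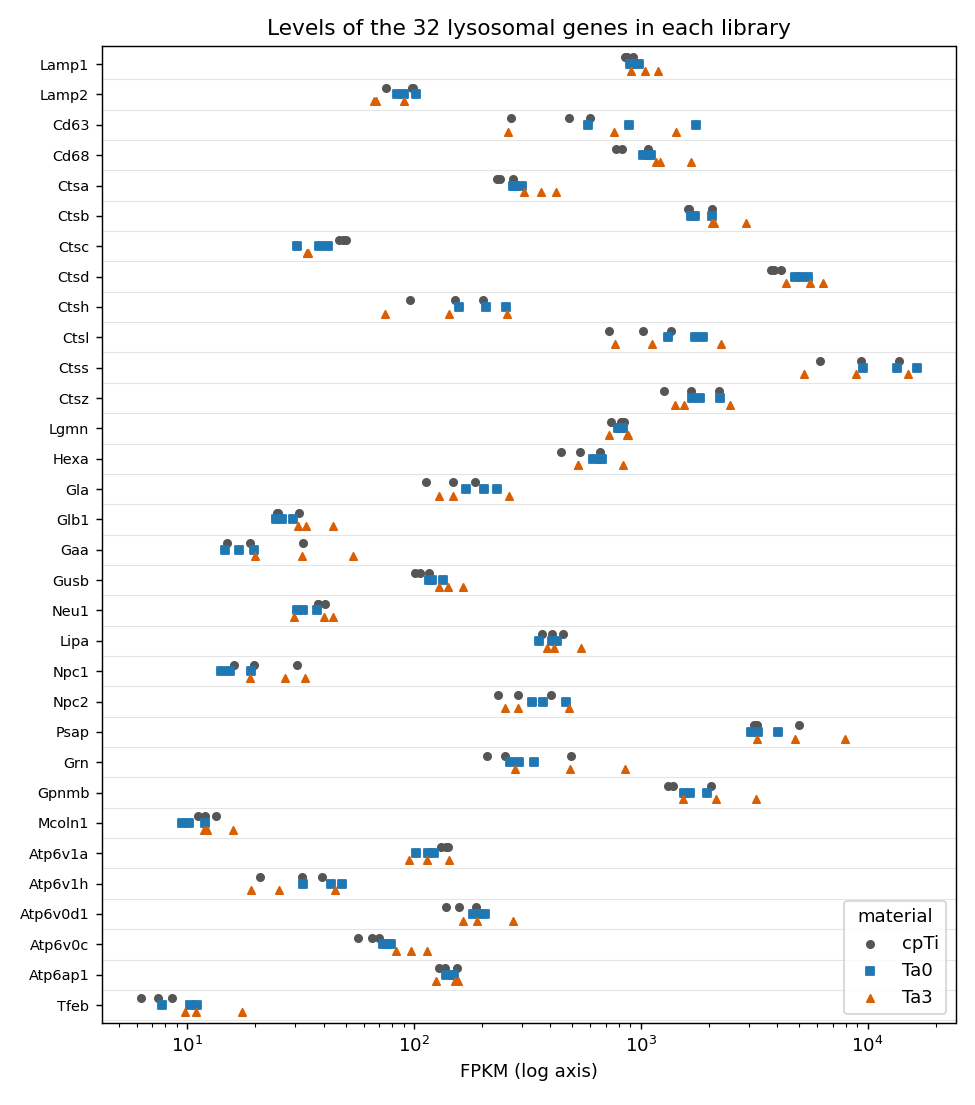
FPKM of each of the 32 genes (rows, ordered by role) in each library on a log axis, with circles for cpTi, squares for Ta0 and triangles for Ta3. Levels span from 6.26 FPKM in the lowest library of Tfeb to 16449.8 FPKM in the highest of Ctss, and the points of the 3 materials interleave for most genes.

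No gene of the 32 passed the test in any comparison. Each comparison was fitted with limma over all 10858 tested genes, and a gene was called at a Benjamini-Hochberg adjusted p under 0.05. For Ta0 against cpTi 0 of 32 were called where 0.424% of all tested genes were, and 0 of 32 were at an unadjusted p under 0.05, beside 5.50% of all tested genes. For Ta3 against cpTi 0 of 32 were called where 0.479% of all genes were. Atp6v0c, Ctsc and Tfeb were at an unadjusted p under 0.05 there, with limma p of 0.0192, 0.0206 and 0.0215. That is 9.38% of the 32, beside 6.99% of all tested genes. For Ta3 against Ta0 0 of 32 were called where 0.00% of all genes were, and Gaa alone had an unadjusted p under 0.05 in the limma fit (0.0457), beside 4.25% of all tested genes. Limma with voom weights on rebuilt reads also called 0 of the 32 in each comparison, as did the fit without Ta0 replicate 1 and Ta3 replicate 3.

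Among the proteases were the most abundant RNAs of the group. Ctss, cathepsin S, a cysteine protease that cuts the invariant chain in antigen presentation, stood at 9300.1, 13719 and 6152 FPKM on cpTi, 16449.8, 9568 and 13453 FPKM on Ta0 and 8864, 5238 and 15086 FPKM on Ta3. The highest and the lowest Ctss library differed more within Ta3 than the group means of the 3 materials did. Psap, the precursor of the saposins that help lysosomal enzymes reach sphingolipids, stood at 3256, 3157 and 4987 FPKM on cpTi, 3068, 4013 and 3299 FPKM on Ta0 and 4765, 7908 and 3268 FPKM on Ta3. Psap largely ran opposite to Ctss, with its highest value in Ta3 replicate 2, where Ctss was lowest. The ratio of Ctss to Psap FPKM was 2.86, 4.35 and 1.23 on cpTi, 5.36, 2.38 and 4.08 on Ta0, and 1.86, 0.662 and 4.62 on Ta3. Together with Ctsd and Ctsb, these genes made up 62.0% to 66.8% of the summed FPKM of the 32 genes in every library.

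Ctsd, the aspartic protease cathepsin D, stood at 3849, 4139 and 3752 FPKM on cpTi, 5480.3, 5011 and 4781 FPKM on Ta0 and 4366, 5576 and 6351 FPKM on Ta3. Every library on a glass lay above every library on titanium. Means were 3913 ± 201 FPKM on cpTi, 5091 ± 356 on Ta0 and 5431 ± 1001 on Ta3. Its log2 difference was 0.38 ± 0.53 (SE, 95% interval -0.82 to 1.58, limma adjusted p = 0.8004) for Ta0 against cpTi and 0.46 ± 0.53 (SE, 95% interval -0.75 to 1.66, limma adjusted p = 0.953) for Ta3 against cpTi. The Ta0 difference turned to -0.24 after scaling all libraries to the same FPKM sum, which moved the median of all genes from 0.00 to -0.48. The limma fit assigns each gene a spread that leans on other genes of its level, and abundant genes varied more. Without that trend the limma interval ran from -0.02 to 0.77 for Ta0 (limma adjusted p = 0.748) and from 0.06 to 0.85 for Ta3 (limma adjusted p = 0.597).

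Ctsa, cathepsin A, a serine carboxypeptidase that also shields lysosomal β-galactosidase and neuraminidase, stood at 239, 231 and 272 FPKM on cpTi, 278, 299 and 275 FPKM on Ta0 and 307, 423 and 362 FPKM on Ta3. None of the 3 groups overlapped, with cpTi lowest and Ta3 highest. The log2 difference was 0.20 ± 0.26 (SE, 95% interval -0.41 to 0.80, limma adjusted p = 0.794) for Ta0 against cpTi, which turned to -0.42 after scaling to the same FPKM sum. It was 0.54 ± 0.26 (SE, 95% interval -0.06 to 1.15, limma adjusted p = 0.755) for Ta3 against cpTi and 0.35 ± 0.26 (SE, 95% interval -0.26 to 0.95, limma adjusted p = 0.846) between the glasses. The spans of 14 of the 32 genes overlap another gene, a tested one in 7 cases. That of Ctsa overlaps that of Pltp on the other strand, a gene at a mean of 60.1 FPKM, and the strand setting of the counting is not given in the sources used here.

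Ctsc, cathepsin C, a dipeptidyl peptidase that activates granule serine proteases, lay lower on the glasses by value. It stood at 48.9, 50.3 and 46.8 FPKM on cpTi, 30.7, 38.04 and 41.8 FPKM on Ta0 and 33.6, 34.2 and 33.8 FPKM on Ta3. Every glass library was below every titanium library, and the Ta3 libraries lay within 1 FPKM of each other. Means were 48.7 ± 1.76 FPKM on cpTi, 36.8 ± 5.64 on Ta0 and 33.9 ± 0.295 on Ta3. Its log2 difference was -0.40 ± 0.18 (SE, 95% interval -0.81 to 0.01, limma adjusted p = 0.750) for Ta0 and -0.51 ± 0.18 (SE, 95% interval -0.92 to -0.10, limma adjusted p = 0.540) for Ta3, each against cpTi. The Ta0 interval includes 0 and the Ta3 interval does not, but neither difference passed after adjustment. Without the mean-variance trend the Ta0 interval ran from -0.76 to -0.05 and excluded 0 as well. In that fit the Ta3 intervals of Cd68, Ctsa and Gusb also excluded 0, and no gene of the 32 passed after adjustment.

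Ctsb, cathepsin B, had 1764 ± 257 FPKM on cpTi, 1823 ± 218 on Ta0 and 2365 ± 477 on Ta3. Its 3 Ta3 libraries, 2068, 2916 and 2112 FPKM, lay above those on cpTi, 1607, 1624 and 2061 FPKM. The lowest Ta3 value exceeded the highest cpTi value by under 1%, and the log2 difference was 0.41 ± 0.43 (SE, 95% interval -0.56 to 1.39, limma adjusted p = 0.951). Ctsl, cathepsin L, ranged from 722 to 2259.7 FPKM and Ctsh, an aminopeptidase, from 74.4 to 257 FPKM. Both had their highest value in Ta3 replicate 3, and Ta3 replicate 2 held the lowest value of Ctsh and the lowest glass value of Ctsl. No groups of either gene were apart. Ctsz, a carboxypeptidase, ranged from 1264 to 2466 FPKM. Lgmn, legumain, which processes other cathepsins, was the steadiest of the 32 genes at 725 to 879 FPKM, a 1.21-fold span over 9 libraries.

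**Figure D2:**
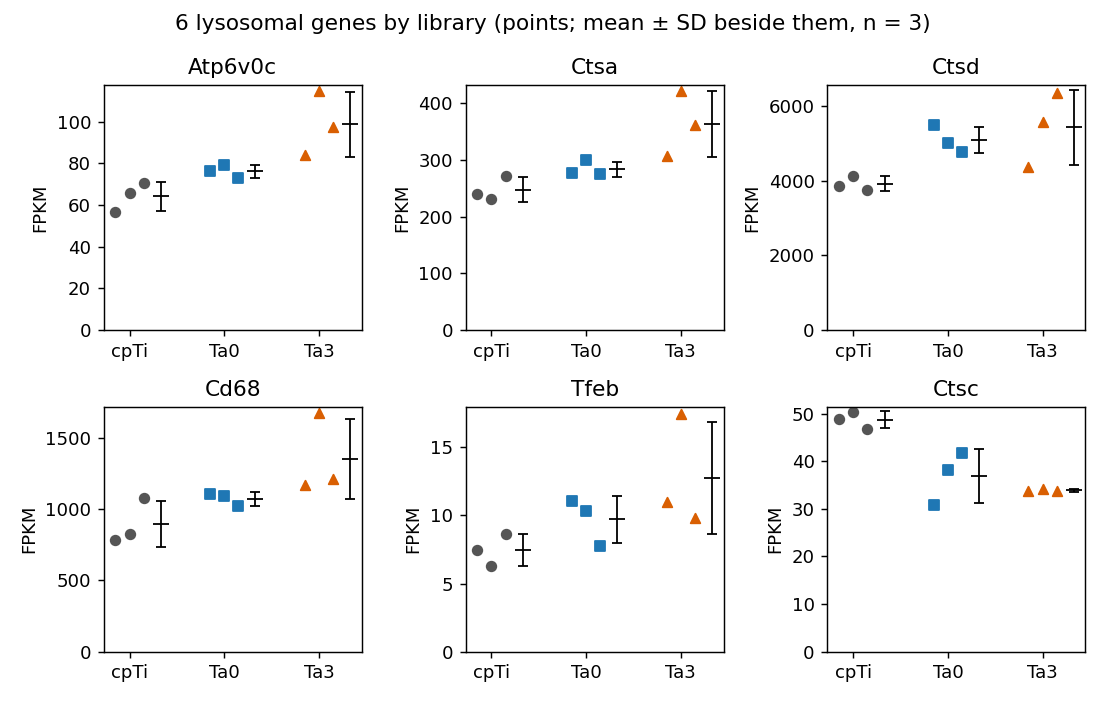
FPKM of Atp6v0c, Ctsa, Ctsd, Cd68, Tfeb and Ctsc in each library (points, on axes that start at 0) with the group mean and SD (n = 3) beside them. Ctsc lies lower on both glasses than on cpTi, the Atp6v0c, Ctsa and Ctsd points lie higher on both glasses on the deposited scale (for Ta0 the direction flips after scaling to the same FPKM sum), and those of Cd68 and Tfeb lie apart from cpTi on Ta3 only.

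The 5 V-ATPase genes gave values on both sides of 0. Atp6v0c, the proteolipid that forms the rotating ring in the membrane, stood at 56.6, 65.6 and 70.4 FPKM on cpTi, 76.2, 79.3 and 73.1 FPKM on Ta0 and 83.8, 115 and 97.5 FPKM on Ta3. None of the 3 groups overlapped, with Ta3 highest. The log2 difference was 0.25 ± 0.21 (SE, 95% interval -0.23 to 0.73, limma adjusted p = 0.750) for Ta0 against cpTi, 0.61 ± 0.21 (SE, 95% interval 0.13 to 1.09, limma adjusted p = 0.522) for Ta3 against cpTi and 0.36 ± 0.21 (SE, 95% interval -0.12 to 0.84, limma adjusted p = 0.846) between the glasses. The Ta0 value turned to -0.36 after scaling to the same FPKM sum. Atp6v0d1, which joins the ring to the central stalk, had 162 ± 25.2, 194 ± 11.5 and 209 ± 56.8 FPKM on cpTi, Ta0 and Ta3, with overlapping groups.

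Atp6v1a, the catalytic subunit that hydrolyses ATP, stood at 139, 132 and 142 FPKM on cpTi, 102, 115 and 123 FPKM on Ta0 and 115, 143 and 95.6 FPKM on Ta3. Its Ta0 libraries lay below those on cpTi with a log2 difference of -0.28 ± 0.23 (SE, 95% interval -0.82 to 0.25, limma adjusted p = 0.750), and its Ta3 libraries reached from below to above the cpTi range. Atp6v1h, a regulatory subunit of the same sector, ranged from 19.1 to 48.3 FPKM, with its lowest value in Ta3 replicate 2 and its highest in Ta0 replicate 1. Atp6ap1, an accessory protein of pump assembly, stayed between 125 and 157 FPKM in all libraries.

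Among the glycosidases, Gusb, β-glucuronidase, stood at 101, 107 and 117 FPKM on cpTi, 116, 134 and 120.4 FPKM on Ta0 and 129, 164 and 141 FPKM on Ta3. All Ta3 libraries exceeded those on cpTi, and the Ta0 range overlapped the cpTi range. The log2 difference of Ta3 against cpTi was 0.41 ± 0.22 (SE, 95% interval -0.08 to 0.91, limma adjusted p = 0.789). Gaa, the acid α-glucosidase that degrades glycogen, stood at 18.9, 14.97 and 32.6 FPKM on cpTi, 16.9, 19.7 and 14.8 FPKM on Ta0 and 32.002, 53.7 and 19.98 FPKM on Ta3. Its Ta3 libraries lay above all Ta0 libraries, by a margin of under 1 FPKM at the nearest pair, while the cpTi libraries spanned from the Ta0 range to the Ta3 range. The log2 difference of Ta3 against Ta0 was 0.90 ± 0.38 (SE, 95% interval 0.02 to 1.78, limma adjusted p = 0.846), the only value of the 32 genes in that comparison at an unadjusted p under 0.05.

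Glb1, β-galactosidase, had 24.7, 29.4 and 26.1 FPKM on Ta0 and 30.9, 43.9 and 33.4 FPKM on Ta3, which do not overlap, with a log2 difference of 0.41 ± 0.20 (SE, 95% interval -0.05 to 0.86, limma adjusted p = 0.846). Its cpTi libraries, 24.9, 25.2 and 31.1 FPKM, overlapped both. The span of Glb1 holds a gene on the same strand, Tmppe, at 2.87 FPKM. Neu1, the lysosomal sialidase, had 37.8, 40.5 and 37.8 FPKM on cpTi and 32.4, 37.4 and 30.4 FPKM on Ta0 without overlap, with a log2 difference of -0.21 ± 0.20 (SE, 95% interval -0.67 to 0.25, limma adjusted p = 0.751), and 29.6, 40.2 and 44.1 FPKM on Ta3. Hexa, β-hexosaminidase subunit alpha, ranged from 445 to 837 FPKM and Gla, α-galactosidase A, from 113 to 262 FPKM. Both had their lowest value in cpTi replicate 3 and their highest in Ta3 replicate 3.

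Lipa, the acid lipase that frees cholesterol from its esters, stayed between 357 and 544 FPKM. Npc1 and Npc2, which pass that cholesterol out of the lysosome, differed in their pattern. Npc1 stood at 19.8, 16.03 and 30.5 FPKM on cpTi, 14.2, 19.2 and 15.5 FPKM on Ta0 and 26.9, 33.1 and 18.9 FPKM on Ta3, and Npc2 at 288, 403 and 235 FPKM on cpTi, 467, 330.5 and 369.6 FPKM on Ta0 and 289, 251 and 484 FPKM on Ta3. Npc1 was low in Ta0 replicate 1 and high in Ta3 replicate 2 and cpTi replicate 3, and Npc2 was the reverse. No group of either gene was apart from another.

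Of the membrane proteins, Lamp1 and Lamp2 are the abundant glycoproteins of the lysosomal limiting membrane. Lamp1 had 884 ± 40.05, 939 ± 42.9 and 1046 ± 139 FPKM on cpTi, Ta0 and Ta3, and Lamp2 had 90.97 ± 13.5, 92.4 ± 9.48 and 74.9 ± 13.3 FPKM. Their groups overlapped in all 3 comparisons. Cd68, a sialomucin typical of macrophages, stood at 781, 827 and 1078 FPKM on cpTi, 1109, 1089 and 1019.5 FPKM on Ta0 and 1166, 1672 and 1209.6 FPKM on Ta3. Its Ta3 libraries lay above those of both other materials, with a log2 difference of 0.59 ± 0.37 (SE, 95% interval -0.26 to 1.43, limma adjusted p = 0.861) against cpTi and 0.31 ± 0.37 (SE, 95% interval -0.54 to 1.16, limma adjusted p = 0.846) against Ta0. The difference from Ta0 turned to -0.05 with the GC slope of each library, described below, as a covariate.

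Cd63, a tetraspanin of late endosomes and secreted vesicles, had the widest spread of the 32 genes, at 482, 599 and 268 FPKM on cpTi, 1749.6, 586 and 887 FPKM on Ta0 and 763, 259 and 1429 FPKM on Ta3. The highest library was 6.75-fold above the lowest, and the groups overlapped in all 3 comparisons.

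Grn, progranulin, which is cut into granulins in the lysosome, stood at 253, 211 and 491 FPKM on cpTi, 292, 339.5 and 266 FPKM on Ta0 and 488, 854 and 278 FPKM on Ta3. Gpnmb, a transmembrane glycoprotein that is abundant in lipid-laden and lysosome-rich macrophages, had 1582 ± 395, 1720.3 ± 213 and 2303 ± 852 FPKM. Both were highest in Ta3 replicate 2, and the groups of both overlapped in all 3 comparisons. Mcoln1, the lysosomal calcium channel TRPML1, had 12.2 ± 1.16, 10.6 ± 1.32 and 13.4 ± 2.26 FPKM, with overlap in all comparisons.

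Tfeb stood at 7.46, 6.26 and 8.61 FPKM on cpTi, 11.1, 10.3 and 7.77 FPKM on Ta0 and 10.96, 17.4 and 9.82 FPKM on Ta3. All Ta3 libraries exceeded all cpTi libraries, and 2 of 3 Ta0 libraries did. The log2 difference of Ta3 against cpTi was 0.67 ± 0.24 (SE, 95% interval 0.13 to 1.22, limma adjusted p = 0.552), and it turned to -0.12 with the GC slope as a covariate. These are levels of its RNA, and the location of the protein, which sets its activity, was not measured.

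The intervals set what this fit could show. Their half-width for these genes ran from 0.40 to 1.74 on the log2 scale with a median of 0.78, against a median of 0.58 for all tested genes. The absence of calls therefore does not show that the materials gave equal levels. The wider intervals do not mean that these genes varied more. Their SD within materials had a median of 0.24 log2 units, beside 0.32 for all tested genes. It was 0.76 for the 1000 tested genes of highest mean FPKM, and the fit leans on genes of like level. The median log2 difference over the 32 genes was 0.16 for Ta0 against cpTi, 0.24 for Ta3 against cpTi and 0.11 for Ta3 against Ta0, beside 0.00, 0.02 and -0.04 over all tested genes. After scaling to the same FPKM sum the medians were -0.45, 0.10 and 0.58, beside -0.48, -0.09 and 0.33 over all genes. With the GC slope as a covariate, they were 0.11, 0.09 and 0.03, beside -0.03, -0.09 and -0.03. Leaving out 1 library at a time gave 0.11 to 0.19, 0.17 to 0.33 and 0.07 to 0.23. Without Ta3 replicate 1 the median between the glasses was 0.23, and without Ta3 replicate 2 it was 0.07. In the 3 comparisons on the deposited scale, 23, 25 and 20 of the 32 values were above 0.

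**Figure D3:**
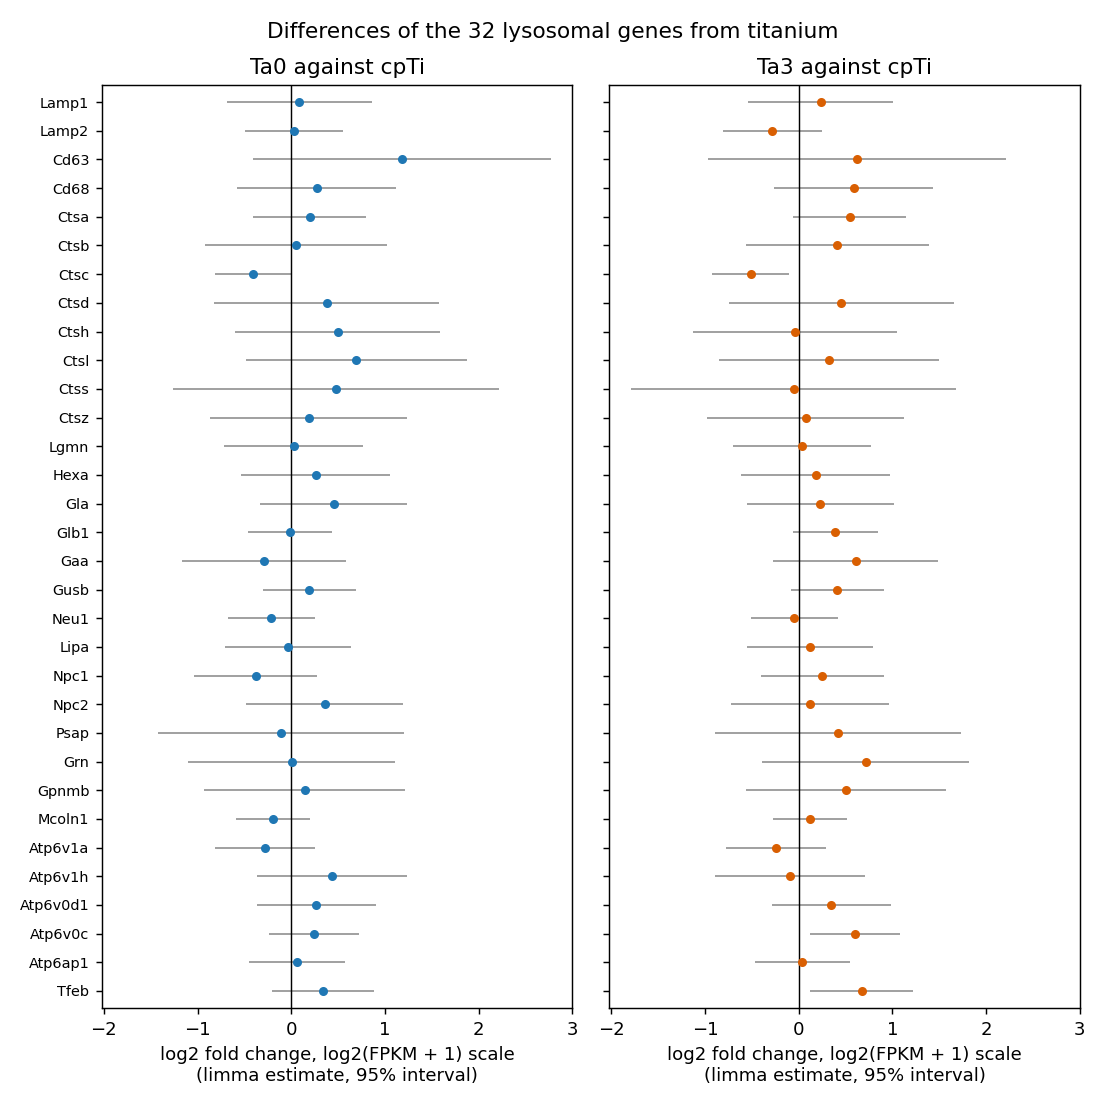
Log2 fold change with its 95% interval from limma for each of the 32 genes (rows), for Ta0 against cpTi on the left and Ta3 against cpTi on the right, on the log2(FPKM + 1) scale. All intervals for Ta0 cross 0, and for Ta3 all but those of Atp6v0c, Ctsc and Tfeb do, and none passed after adjustment over all genes.

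Counting genes whose groups did not overlap, 6 of the 32 (18.8%) were apart for Ta0 against cpTi, 3 higher on the deposited scale (Ctsa, Ctsd and Atp6v0c, which flip after scaling to the same FPKM sum) and 3 lower (Ctsc, Neu1 and Atp6v1a). Over all tested genes the share was 16.5%, 6.31% higher and 10.2% lower, so the 32 genes were near the background. For Ta3 against cpTi 8 of the 32 were apart, which is 25.0% beside 11.7% of all tested genes. Of these 7 were higher (Cd68, Ctsa, Ctsb, Ctsd, Gusb, Atp6v0c and Tfeb), 21.9% beside 3.47% of all genes. The 1 that was lower, Ctsc, is 3.13% of the 32 beside 8.22% of all genes. For Ta3 against Ta0 5 were apart, all higher on Ta3 (Cd68, Ctsa, Glb1, Gaa and Atp6v0c), 15.6% beside 8.97% of all genes, which were 4.10% higher and 4.87% lower. The comparisons against cpTi share the same titanium libraries.

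The 32 genes showed 2 main patterns over the libraries, counted by each gene's highest and lowest library. In 11 genes, the lowest library was Ta3 replicate 2 or cpTi replicate 3 and the highest was Ta0 replicate 1 or Ta3 replicate 3. Cd63, Ctsh, Ctss, Atp6v1h, Ctsl, Npc2 and Gla showed this most. Over all tested genes, the lowest library was Ta3 replicate 2 in 24.7% and cpTi replicate 3 in 10.9%. The highest was Ta0 replicate 1 in 22.2% and Ta3 replicate 3 in 18.6%. The share of all genes that join such a lowest and highest library was not counted, so the 11 genes have no background beside them. In 16 genes, the highest library was Ta3 replicate 2, with Grn, Gaa, Psap, Gpnmb and Tfeb at the top. Ta3 replicate 2 was the highest library for 26.6% of all tested genes, against 16 of these 32. Both counts rest on the extreme libraries alone and do not separate variation within a material from differences between materials. The 11 include Ctsd, whose glass libraries all lay above cpTi. The 16 include Cd68, Ctsa, Ctsb, Gusb, Atp6v0c and Tfeb, whose Ta3 libraries all lay above cpTi. The share of a gene's variance over the 9 libraries that lay between the material means had a median of 32.8%, beside 23.3% for all tested genes. Means of so few libraries also differ through noise, so such a share does not measure an effect of the material. The share was above 75% for Ctsc (80.7%), Atp6v0c (78.0%) and Ctsa (75.7%), and below 5% for Lgmn (3.25%) and Atp6ap1 (4.63%).

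**Figure D4:**
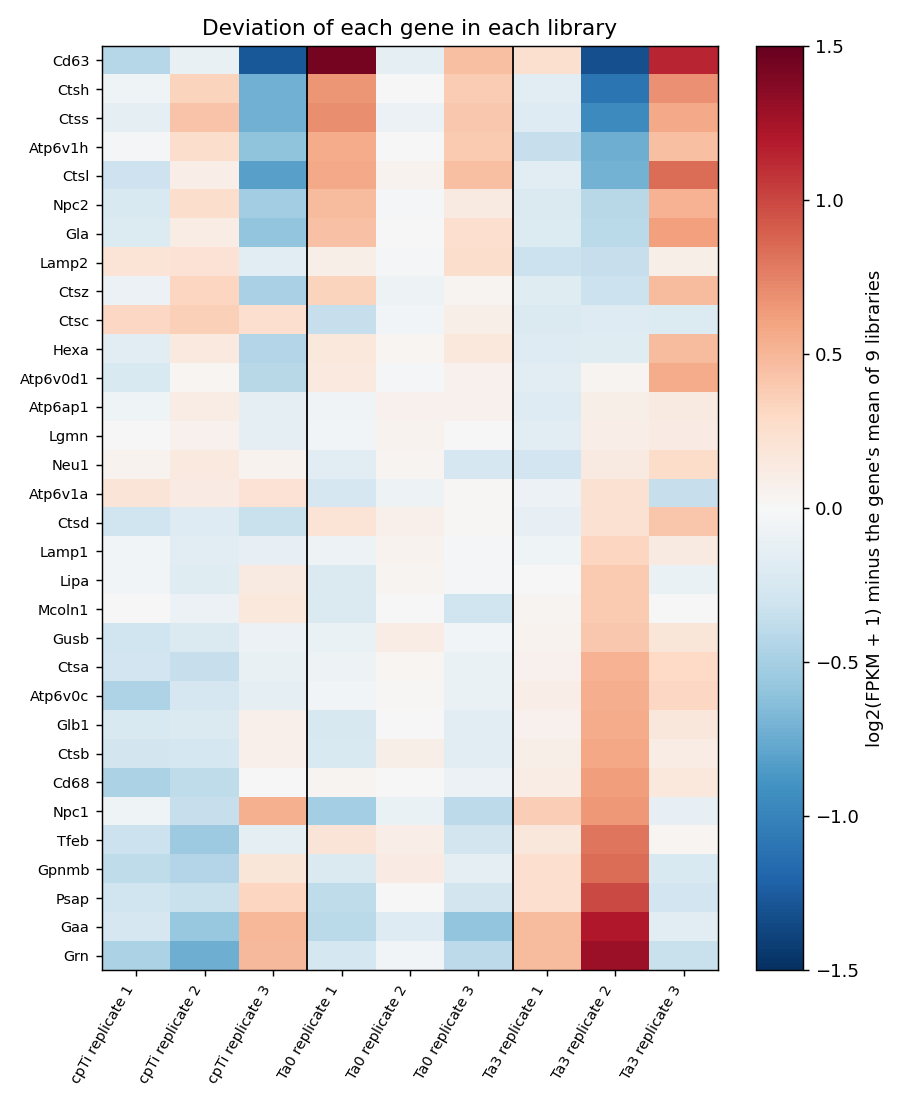
Deviation of log2(FPKM + 1) from the gene's mean of 9 libraries, for the 32 genes (rows, ordered by their value in Ta3 replicate 2) and the 9 libraries (columns, with lines between materials). Genes at the top are low in cpTi replicate 3 and Ta3 replicate 2, most genes at the bottom are high there, and the split runs within materials as well as between them.

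The base composition of the transcripts and the gene length were set beside these patterns. GC content from GENCODE M21 transcripts was available for all 32 genes and ran from 40.9% for Lamp2 to 61.9% for Tfeb, with a median of 51.9% beside 50.7% for all tested genes. Across the 32 genes, Pearson's r between a gene's GC content and its deviation was -0.48, -0.49 and 0.16 in cpTi replicates 1 to 3. It was -0.14, 0.03 and -0.57 in the Ta0 libraries and 0.41, 0.46 and -0.03 in the Ta3 libraries. These are descriptions across 32 genes of the same libraries, and genes are not independent replicates. Over 10849 tested genes the slope of deviation on GC content was -0.14, -0.15 and -0.04 log2 units per 10 percentage points on cpTi, 0.01, 0.04 and -0.16 on Ta0, and 0.10, 0.24 and 0.09 on Ta3. All Ta3 GC slopes were above all cpTi GC slopes. The slope on gene length was 0.06, -0.06 and 0.21 log2 units per doubling on cpTi, -0.23, 0.03 and -0.08 on Ta0, and 0.02, 0.27 and -0.21 on Ta3. It was highest in Ta3 replicate 2 and cpTi replicate 3 and lowest in Ta0 replicate 1 and Ta3 replicate 3. Across the 32 genes, Pearson's r between log2 gene length and deviation ran from -0.24 to 0.28. The part of length in the patterns was not tested. Of the 7 genes apart from cpTi and higher on Ta3, the GC content is 61.9% for Tfeb, 58.0% for Atp6v0c, 57.2% for Ctsa, 55.2% for Ctsd, 53.5% for Cd68, 52.3% for Gusb and 49.2% for Ctsb. Ctsc, apart and lower on Ta3, has 45.0%. Some other GC-rich genes of the 32 overlapped cpTi on Ta3. They include Gaa (59.4%), Ctsz (57.3%), Mcoln1 (57.2%) and Neu1 (57.0%), with log2 differences of 0.61, 0.08, 0.12 and -0.05.

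With the GC slope as a covariate, the log2 difference of Ta3 against cpTi was 0.29 for Atp6v0c, 0.22 for Ctsa, 0.38 for Ctsd, 0.08 for Cd68, 0.14 for Gusb, -0.31 for Ctsc, -0.07 for Ctsb and -0.12 for Tfeb. Without the slope the values were, in the same order, 0.61, 0.54, 0.46, 0.59, 0.41, -0.51, 0.41 and 0.67. Ctsb and Tfeb changed sign. With the slope on gene length as the covariate instead, limma called 6 of the 32 genes for Ta3 against cpTi. In that limma fit Atp6v0c (adjusted p = 0.0259), Tfeb (0.0386), Grn (0.0391), Ctsa (0.0393) and Gaa (0.0409) were higher, and Ctsc (0.0485) was lower. The same fit called 583 of the 10858 tested genes, 198 higher and 385 lower, and with the GC slope it was 0 of all genes. Both slopes were estimated from the same values that these fits tested. The adjusted p-values make no allowance for that. GC slopes and materials are tied together in 9 libraries, and the part of each cannot be told apart. The length slopes, given above, overlapped between all 3 materials. The length fit was planned, and the GC fit was added after seeing the data.

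**Figure D5:**
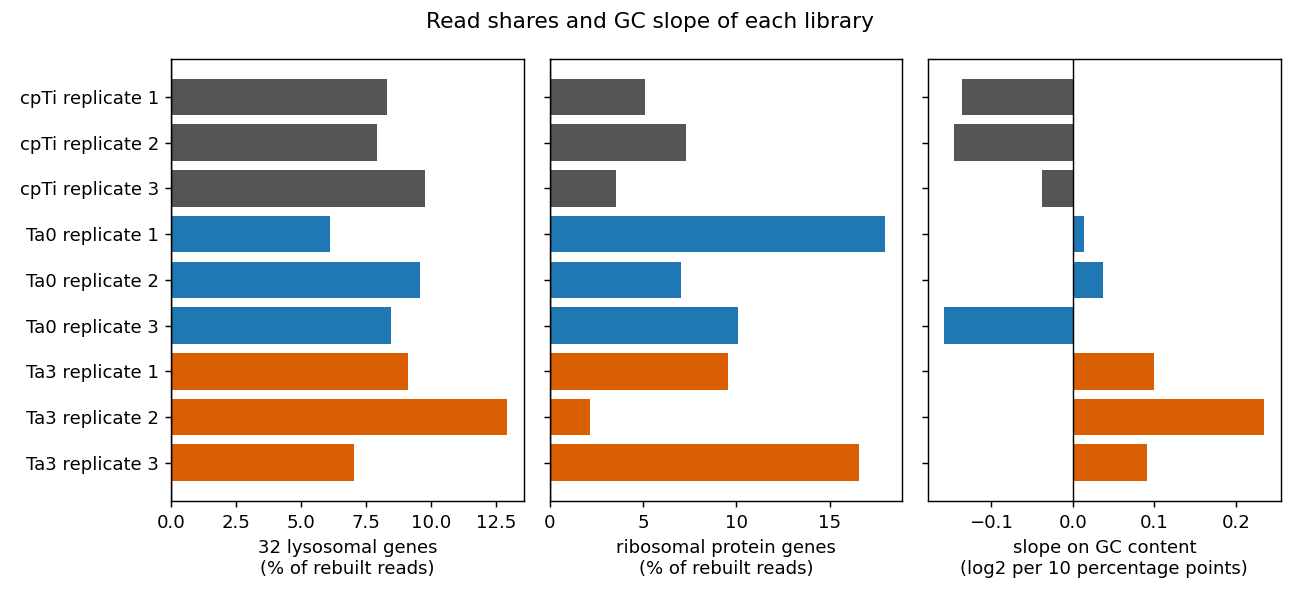
For each library, the percent of rebuilt reads in the 32 lysosomal genes (left), the percent in ribosomal protein genes (middle) and the slope of log2 deviations on transcript GC content (right), coloured by material. The 2 libraries with the most ribosomal protein reads, Ta0 replicate 1 and Ta3 replicate 3, have the smallest lysosomal shares, and Ta3 replicate 2 has the reverse.

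The genes with TCACGTG in the promoter window were set beside those with a window and without it. For Ta3 against cpTi, the median log2 difference was 0.29 over the 10 genes with the box and 0.25 over the 18 without it, with 9 of 10 and 14 of 18 above 0. For Ta0 against cpTi it was 0.06 over the 10 and 0.19 over the 18. Against Ta0, the Ta3 median was 0.11 and 0.07. Neither set had a gene that passed the test.

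A wider list of 115 other lysosomal and autophagy genes, of which 109 were tested, held 0 called genes in each comparison. At an unadjusted p under 0.05 there were 6 for Ta0 against cpTi, 3 in each direction, and 8 for Ta3 against cpTi, 4 in each direction. Their median log2 difference was -0.02 for Ta0 and 0.15 for Ta3 against cpTi, with 52 and 76 of 109 above 0. Groups were apart in 18 and 12 of 109 genes for Ta0 and Ta3 against cpTi, close to the 16.5% and 11.7% of all tested genes. For Ta0, 7 were higher and 11 lower. For Ta3, 3 were higher (2.75%) and 9 lower (8.26%), beside 3.47% and 8.22% of all tested genes.

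Mcoln2, a lysosomal channel related to Mcoln1, came closest to the threshold. It stood at 26.7, 31.5 and 22.9 FPKM on cpTi, 12.6, 14.4 and 17.2 FPKM on Ta0 and 11.9, 12.7 and 15.5 FPKM on Ta3. Every glass library was below every cpTi library, with log2 differences of -0.83 ± 0.19 (SE, 95% interval -1.28 to -0.39, limma adjusted p = 0.217) for Ta0 and -0.96 ± 0.19 (SE, 95% interval -1.41 to -0.52, limma adjusted p = 0.108) for Ta3. Other channels and membrane proteins were 18 genes in all, with medians of -0.07 and 0.03 against cpTi.

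Of 13 tested other V-ATPase subunits, 11 had values above 0 on each glass, with medians of 0.48 for Ta0 and 0.27 for Ta3. Without Ta0 replicate 1 and Ta3 replicate 3 the medians were 0.32 and -0.10, with 11 and 5 of 13 above 0. After scaling to the same FPKM sum they were -0.14 and 0.12, beside -0.48 and -0.09 over all genes. Atp6v1g1, a stalk subunit chosen after its values were seen, stood at 565, 934 and 332 FPKM on cpTi, 2197, 667 and 1167 FPKM on Ta0 and 819, 264 and 1865 FPKM on Ta3. Its highest values were in the pair of libraries that stood apart, and its lowest was in Ta3 replicate 2. Atp6v0d2, a subunit typical of osteoclasts and macrophages, had 211, 202 and 182 FPKM on cpTi, 387, 331 and 397 on Ta0 and 271, 226 and 338 on Ta3. Every glass library was above every cpTi library, and the log2 difference of Ta0 against cpTi was 0.90 ± 0.27 (SE, 95% interval 0.28 to 1.52, limma adjusted p = 0.476). Atp6v0a1, a membrane subunit of the proton path, stood at 26.7, 19.2 and 45.7 FPKM on cpTi, 49.7, 47.3 and 39.6 FPKM on Ta0 and 63.5, 85.7 and 42.4 FPKM on Ta3. The highest cpTi library lay above the lowest library of each glass.

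Acid phosphatases were lower on the glasses by value. Acp2 had 35.9, 35.8 and 36.98 FPKM on cpTi, 21.96, 27.6 and 25.2 on Ta0 and 23.5, 29.6 and 21.4 on Ta3, and Acp5, the tartrate-resistant form, had 94.5, 126 and 72.9 on cpTi, 64.6, 52.7 and 60.5 on Ta0 and 52.3, 41.4 and 66.1 on Ta3. Both had groups apart from cpTi on each glass. The log2 differences were -0.53 ± 0.18 (SE, 95% interval -0.95 to -0.11, limma adjusted p = 0.675) for Acp2 on Ta0 and -0.85 ± 0.27 (SE, 95% interval -1.47 to -0.23, limma adjusted p = 0.443) for Acp5 on Ta3. The list of 8 sulfatases and phosphatases had medians of -0.31 for Ta0 and 0.14 for Ta3.

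Among other peptidases, Napsa, an aspartic protease, had 12.1, 11.3 and 13.5 FPKM on cpTi, 18.6, 17.1 and 15.7 on Ta0 and 16.2, 20.9 and 20.6 on Ta3. Its log2 difference was 0.60 ± 0.17 (SE, 95% interval 0.22 to 0.98, limma adjusted p = 0.337) on Ta3 and 0.45 ± 0.17 (SE, 95% interval 0.07 to 0.83, limma adjusted p = 0.737) on Ta0, the latter turning to -0.13 after scaling to the same FPKM sum. The 8 tested genes of that list had medians of -0.03 and 0.18. Of 11 other glycosidases, Fuca1, α-fucosidase, had the smallest p on Ta0, with 65.6 ± 10.2 FPKM on cpTi and 99.5 ± 15.2 on Ta0. The medians were 0.05 and 0.25.

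The remaining lists held 0 genes at an unadjusted p under 0.05 in the comparisons against cpTi. Of 7 lipid hydrolases and cofactors, Pla2g15, a lysosomal phospholipase, had 28.6 ± 7.41 FPKM on cpTi and 45.1 ± 14.2 on Ta3. The list's medians were -0.01 for Ta0 and 0.17 for Ta3. Of 17 MiT/TFE factors and nutrient sensing genes, Fnip1, a folliculin partner, had 18.3 ± 3.29 FPKM on cpTi and 14.2 ± 2.07 on Ta0, and Zkscan3 had 3.68 ± 0.357 on cpTi and 2.74 ± 0.693 on Ta3. Medians there were -0.01 and 0.03, beside 0.00 and 0.02 over all tested genes.

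Of 9 genes that sort enzymes to lysosomes, M6pr, the cation-dependent mannose 6-phosphate receptor, had 117 ± 17.2 FPKM on cpTi and 83.9 ± 3.83 on Ta3. Igf2r, the other such receptor, had 14.2 ± 6.87 on cpTi and 9.36 ± 1.86 on Ta0. The medians were -0.06 and 0.18. Of 16 autophagy genes, Gabarapl1 had 59.3 ± 8.03 on cpTi and 79.9 ± 4.96 on Ta0, and Atg16l1 had 3.54 ± 0.297 on cpTi and 2.66 ± 0.472 on Ta3, with list medians of -0.10 and 0.10. Of 4 cystatins, which inhibit cysteine cathepsins, 2 were tested. Cst3, cystatin C, stood at 1286, 2083 and 622 FPKM on cpTi, 5883, 1512 and 2872 FPKM on Ta0 and 2292, 424 and 6811 FPKM on Ta3, with its highest values in Ta0 replicate 1 and Ta3 replicate 3 and its lowest in Ta3 replicate 2 and cpTi replicate 3, the libraries that also held the extremes of Ctss and Cd63.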

How the data were processed

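RNA-seq of 9 libraries was deposited as 1 table of FPKM per gene, made by the authors, with gene coordinates and lengths on GRCm38/mm10. The submitters' processing notes name HISAT2 2.0.5, CASAVA 1.8, DESeq2 1.20.0, fastp and featureCounts 1.5.0-p3 without giving their roles. The strand setting of the counting is not given in the sources used here. The FPKM times gene length gave whole reads within 0.05 for 100% of values, and those reads gave the depths.

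The members and lists were chosen with earlier results of these data known. The tested genes reached 1 FPKM in 3 or more libraries. Values were analysed on log2(FPKM + 1) with limma 3.58.1 (R 4.3.3, mean-variance trend) in 1 fit of all 9 libraries without covariates. The fit was also run on simulated data with independent noise for each gene. Those data held no slopes on GC content or length, so they cannot show how the fit behaves with such slopes. P-values were adjusted by Benjamini-Hochberg over all tested genes, and 95% intervals are limma's. The named genes were all 32 members and, from each other lysosomal list, any called gene or else the gene of smallest p in each comparison against cpTi. Some genes that this rule names are not reported here. GC content is the mean over protein-coding GENCODE M21 transcripts, and promoters are from RefSeq. Tables were joined with Python 3.11.15. Alternatives were another pseudocount, no filter, a common FPKM total, 6 libraries per fit, a replicate block, a length slope, voom on rebuilt reads, and leaving out libraries. The GC slope, both slopes together and limma without the trend were added after seeing the data.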

Additional observations from a re-analysis of the deposited data

How the results depend on the processing

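No member was called in any comparison under any alternative, except 6 for Ta3 against cpTi with the length slope as a covariate. The number of all genes called moved far more. For Ta0 against cpTi, 46 genes became 27 with a pseudocount of 0.1 FPKM, 28 without a filter, 11 with a common FPKM total, 247 with the length slope, 15 with the GC slope and 20 without Ta0 replicate 1 and Ta3 replicate 3. For Ta3 against cpTi, 52 genes became 29, 21, 11, 583, 0 and 18 under the same settings, 7 with only the 6 libraries compared and 3 with GC and length slopes together. Leaving out 1 library at a time gave 7 (without Ta0 replicate 2) to 84 genes (without Ta3 replicate 3) for Ta0 and 8 (without cpTi replicate 1) to 30 (without Ta3 replicate 3) for Ta3 against cpTi. All of these counts except the 34 for Ta0 without Ta3 replicate 2 were more than 1.5-fold from the full count. Each such fit called 0 members. Between the glasses 0 genes were called by limma in every setting. The number at an unadjusted p under 0.05 was 462 as reported and ran from 56 with a common FPKM total to 2045 without Ta3 replicate 3. Replicate numbers did not pair the libraries: correlations of same-numbered deviations ran from -0.82 to 0.85, and the replicate block gave 4 genes for each glass against cpTi and 0 members. A common FPKM total turned the Ta0 differences of Ctsa (-0.42), Ctsd (-0.24), Atp6v0c (-0.36) and Napsa (-0.13), and the signs of 21 of the 32 members. That scaling moved the median of all genes from 0.00 to -0.48, and the 4 named genes stayed above that median. The GC slope turned Ctsb (-0.073) and Tfeb (-0.12) for Ta3 against cpTi and Cd68 between the glasses (-0.0502, or -0.0094 with both slopes), and the signs of 14 and 20 members. The cause was not tested. The number of libraries, 3 per material, limits the precision.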
